A study of Mus musculus with 6 samples.

Results

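The 10 genes described here carry BMP and TGF-beta signals: the ligands Bmp2 and Tgfb1, the receptors Tgfbr1, Tgfbr2, Bmpr1a and Bmpr2, the Smads Smad3, Smad6 and Smad7, and the target gene Id3. They were taken by symbol from a table of 17469 genes, and all 10 were found and had enough counts for the test. The cells, which the study names OB progenitors, were sorted by FACS as tdTomato+ cells from BMSC cultures of 6-month-old mice, with 3 libraries of control mice (Ocn-Cre;Ai9) and 3 of TgAPPsweOCN;Ai9 mice (TgAPPswe;Ocn-Cre;Ai9). The 2 genotypes share an osteocalcin-promoter Cre and the Ai9 allele, which makes tdTomato after Cre recombination. TgAPPsweOCN;Ai9 mice also carry APPswe, a human amyloid precursor protein gene bearing the Swedish mutation, behind a CAG promoter and a stop cassette that Cre removes. Neither genotype received a treatment, and the sources used here do not say which mouse or mice each library came from, so p-values measure the spread between these libraries.

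TGF-beta and BMPs are secreted dimers that bring a type II receptor kinase together with a type I receptor kinase on the cell surface. The active type I receptor phosphorylates receptor Smads, which are Smad2 and Smad3 after TGF-beta and Smad1, Smad5 and Smad9 after BMP, and these enter the nucleus with Smad4. Smad6 and Smad7 inhibit the pathway and are themselves induced by it, and the Id genes are classical BMP targets. In bone, BMP2 drives osteoblast differentiation and TGF-beta released from the matrix couples resorption to formation, and in macrophages TGF-beta restrains activation.

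The libraries held 19340810 to 22037840 estimated counts, and the smallest level taken as detectable, 3 counts, was 0.136 to 0.155 CPM (counts scaled by library total), which covers counting error only. App had an FPKM of 275 to 281 in control and 325 to 333 in TgAPPsweOCN;Ai9 libraries, from an entry that cannot separate the human transgene from the mouse gene. The markers did not bear out the name OB progenitors alone, so the cells are called sorted tdTomato+ cells below. Over 15 stromal and osteoblast-lineage markers the median FPKM was 1.62 to 2.13 in control and 1.47 to 4.04 in TgAPPsweOCN;Ai9 libraries. The list was uneven: Sparc (52.4 to 93.5 over all libraries), Col1a2 (34 to 56.5), Col1a1 (26.9 to 45.7), Cxcl12 (22.7 to 63.4) and Col3a1 (10.2 to 20.7) had the highest mean FPKM of the list. Runx2 (1.3 to 2.13), Sp7 (0.58 to 1.52) and Bglap, which encodes osteocalcin (0 to 1.25), were low. These genes were chosen after their values were seen. Over 15 myeloid markers the median FPKM was 407 to 453 and 472 to 508, far above the stromal median in every library. The summed FPKM of the myeloid list was 18408 to 19156 in control and 15536 to 19284 in TgAPPsweOCN;Ai9 libraries, none of its markers was at 0, and 5 of the 15 were called up and 4 down by the criteria given next, which called 8.9% and 9.2% of all tested genes. Summed stromal markers ran from 221 to 265 and from 172 to 251, endothelial markers from 3.91 to 6.41 and from 5.18 to 6.21, neutrophil markers from 12.3 to 51.5 and from 18.1 to 49.4, and lymphoid markers from 0.08 to 0.21 and from 0.06 to 0.22. The myeloid median was thus higher in every TgAPPsweOCN;Ai9 library than in any control library, while its sum overlapped. The part of these cells in the results below was not tested. In such bulk samples, fewer cells of a type and less RNA per cell cannot be told apart.

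Estimated counts were compared with edgeR, and a gene was called when its Benjamini-Hochberg adjusted p over all 12701 tested genes was at or below 0.05 and its log2 fold change was at least 1 in either direction. Bmp2, Tgfbr1, Smad6, Smad7 and Id3 were called down in sorted tdTomato+ cells of TgAPPsweOCN;Ai9 mice, and Smad3 was called up. Thus 5 of the 10 genes were called down, against 9.2% of all tested genes, and 1 was called up, against 8.9%. Tgfb1 (higher) and Tgfbr2 (lower) met the adjusted p with smaller changes, which made 2 of 10 genes higher and 6 lower by the adjusted p, against 32.5% and 31.5% of all tested genes (64% in either direction). Bmpr1a and Bmpr2 did not meet it. FPKM values of those 8 genes did not overlap between the genotypes, 2 higher and 6 lower, against 24% and 48.3% of all tested genes (72.3% in either direction). FPKM lacks the scaling between libraries (TMM) that the edgeR fit applied. The TMM factors were 1.07 to 1.08 in control and 0.91 to 0.944 in TgAPPsweOCN;Ai9 libraries. FPKM thus places TgAPPsweOCN;Ai9 libraries lower against control than the edgeR log2 fold changes do. The median log2 fold change of the 10 genes was -0.74, beside -0.019 for all tested genes. The 10 genes and the lists used below were chosen with earlier results of these data known. Their shares beside those of all tested genes are therefore descriptions and not tests of the genes as sets.

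**Figure D1:**
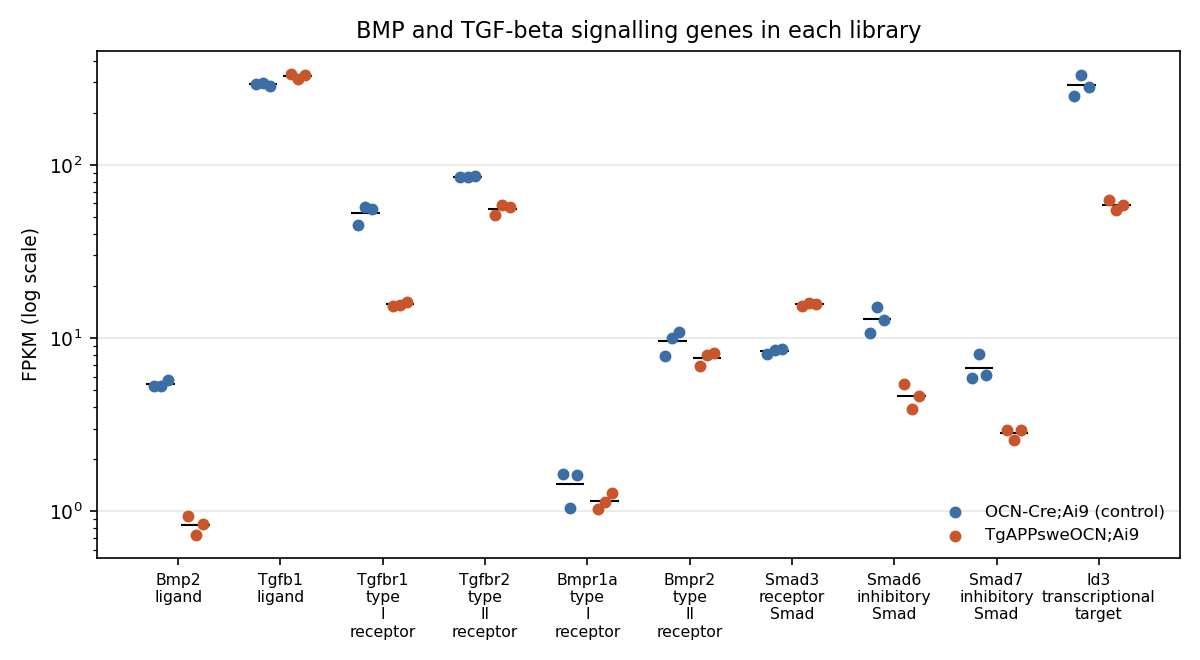
FPKM (fragments scaled by gene length and library depth, log scale) of each gene in the 3 control libraries (blue) and the 3 TgAPPsweOCN;Ai9 libraries (orange), with black lines at the means. The blue and orange points are furthest apart for Bmp2 and Id3, and they overlap for Bmpr1a and Bmpr2.

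FPKM scales a gene's fragments by its length, so it allows levels to be set side by side between genes. In control libraries the order of mean FPKM was Tgfb1, Id3, Tgfbr2, Tgfbr1, Smad6, Bmpr2, Smad3, Smad7, Bmp2 and Bmpr1a. Tgfb1 and Id3 overlapped in this order, as did Smad6 with Bmpr2 and Bmpr2 with Smad3, and each other neighbour lay apart. In TgAPPsweOCN;Ai9 libraries the order was Tgfb1, Id3, Tgfbr2, Smad3, Tgfbr1, Bmpr2, Smad6, Smad7, Bmpr1a and Bmp2. Id3 with Tgfbr2 and Smad3 with Tgfbr1 were the pairs of neighbours that overlapped there. Bmp2 passed from ninth to the bottom of the list, and Smad3 rose above Tgfbr1, Smad6 and Bmpr2.

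Promoters are shown for those of the 10 genes that were called down and had a promoter in the RefSeq set used. Of these genes, Smad6 and Id3 are themselves targets of Smads. RefSeq promoters (GRCm38.p6, the assembly called mm10 in the submitters' processing notes) were matched for 8 of the 10 genes, and not for Bmp2 and Smad7. The 250 bases before the transcription start were searched on both strands for CAGAC, the Smad box, and GGCGCC, a GC-rich Smad site, which can overlap by 1 base. Capitals mark the matches. Id3 lies on the forward strand of chromosome 4 and its window is chr4:136143572-136143821. Smad6 lies on the reverse strand of chromosome 9 with the window chr9:64022060-64022309, which is set by the start in the promoter table and runs a little way into the gene span given below, and Tgfbr1 on the forward strand of chromosome 4 with the window chr4:47352972-47353221.
Id3: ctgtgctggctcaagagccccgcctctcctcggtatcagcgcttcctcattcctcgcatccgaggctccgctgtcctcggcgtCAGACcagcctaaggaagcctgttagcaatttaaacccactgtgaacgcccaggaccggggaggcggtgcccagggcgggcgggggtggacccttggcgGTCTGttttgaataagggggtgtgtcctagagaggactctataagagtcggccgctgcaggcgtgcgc
Smad6: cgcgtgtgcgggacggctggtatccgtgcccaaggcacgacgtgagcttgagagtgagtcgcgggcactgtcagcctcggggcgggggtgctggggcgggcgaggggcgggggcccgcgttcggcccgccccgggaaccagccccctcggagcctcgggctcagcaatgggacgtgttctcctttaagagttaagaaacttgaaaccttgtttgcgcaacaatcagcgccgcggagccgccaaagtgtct
Tgfbr1: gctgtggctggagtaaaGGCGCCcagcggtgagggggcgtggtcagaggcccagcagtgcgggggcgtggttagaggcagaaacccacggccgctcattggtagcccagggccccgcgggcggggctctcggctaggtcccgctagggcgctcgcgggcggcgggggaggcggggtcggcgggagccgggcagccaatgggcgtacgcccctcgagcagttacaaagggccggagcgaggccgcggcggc
The Id3 window held 2 CAGAC matches and no GGCGCC, that of Tgfbr1 held 1 GGCGCC and no CAGAC, and that of Smad6 held neither. A second Tgfbr1 promoter in the table, not shown, held 1 CAGAC. Of all 32851 RefSeq promoters, 42.2% held CAGAC and 9.59% held GGCGCC in this window. Among the 8 matched genes, CAGAC was present for 3 (Id3, Tgfbr1 and Tgfbr2) and GGCGCC for 3 (Bmpr1a, Bmpr2 and Tgfbr1). A gene was counted if any of its promoters, 9 in all, held the match, whereas the shares above are per promoter. A match is a string of letters in a window and was not tested for binding.

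Among the ligands, Bmp2 (Entrez identifier 12156, chr2:133552159-133562896) had an FPKM of 5.27, 5.27 and 5.69 in control and 0.94, 0.73 and 0.84 in TgAPPsweOCN;Ai9 libraries. Every TgAPPsweOCN;Ai9 library lay far below every control library, and the control mean FPKM, without TMM scaling, was 6.47 times the other. Its edgeR log2 fold change, with TMM scaling, was -2.46 (standard error, SE, 0.118 and adjusted p = 6.78e-07), a value as low or lower in 0.669% of all tested genes. These levels rest on 355, 355 and 369 counts in control and 70, 56 and 62 counts in TgAPPsweOCN;Ai9 libraries. Tgfb1 had an FPKM of 295, 297 and 285 in control and 336, 313 and 332 in TgAPPsweOCN;Ai9 libraries. The genotypes did not overlap, and the log2 fold change was 0.38 (SE 0.06, adjusted p = 0.000611). The rise of Tgfb1 was smaller, 0.16, with scaling by library size only, where the adjusted p was 0.0234.

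Of the other TGF-beta isoforms, Tgfb3 fell from an FPKM of 8.99 ± 1.15 (SD, n = 3) to 2.43 ± 0.229, and was called down at -1.67 (adjusted p = 4.29e-06). Tgfb2 was at 1.51 ± 0.294 and 0.87 ± 0.202, with a log2 fold change of -0.60 (adjusted p = 0.0252). The adjusted p of Tgfb2 was 0.0754 without control replicate 1, 0.0685 without control replicate 3, 0.0704 without TgAPPsweOCN replicate 1 and 0.0916 without TgAPPsweOCN replicate 3. TGF-beta is secreted in a latent form, and 12 tested genes of the wider list encode its isoforms or proteins that hold or free it. Of these, 2 rose and 7 fell by the adjusted p, against 32.5% and 31.5% of all tested genes, with a median log2 fold change of -0.65. Only 1 of the 12 was called up and 1 down, or 8.33% each, near the 8.9% and 9.2% of all tested genes. Nrros, which tethers latent TGF-beta on myeloid cells, fell from 184 ± 7.39 to 91.4 ± 7.57 FPKM (log2 fold change -0.81, adjusted p = 1.43e-05). Mmp14, a membrane metalloproteinase that can free TGF-beta, rose from 55.2 ± 2.05 to 128 ± 10.3 FPKM (log2 fold change 1.43, adjusted p = 1.48e-06).

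Of 26 listed BMP, GDF and activin ligands, 20 had an entry and only 9 had enough counts to be tested, so most BMP ligands were at or near the limit of detection in either genotype. Gdf15, a stress-induced ligand with the highest mean level over all 6 libraries but below Gdf3 in control, rose from an FPKM of 16.1 ± 2.08 to 28.8 ± 2.16 (log2 fold change 1.05, adjusted p = 3.06e-05), and was called up. It was below the threshold of the call, at 0.83, with scaling by library size only, and at 0.99 without control replicate 2 and without control replicate 3. Gdf3, a divergent BMP family ligand, fell from 20.2 ± 0.838 to 4.34 ± 1.35 (log2 fold change -1.96, adjusted p = 1.85e-05). Gdf9 was called down at -1.04 from 12 to 27 counts in control and 8 to 9 in TgAPPsweOCN;Ai9 libraries, with an adjusted p of 0.0468. DESeq2 (adjusted p = 0.126) and 5 of the 6 fits that left out 1 library, all but that without control replicate 3, did not call Gdf9, and it was -0.64 without control replicate 1. The other 5 tested ligands did not meet the adjusted p.

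The TGF-beta receptors were lower in TgAPPsweOCN;Ai9 libraries, the type I receptor by more than the type II receptor. Tgfbr1, the type I receptor of TGF-beta, had an FPKM of 45, 57 and 55.7 in control and 15.3, 15.5 and 16.1 in TgAPPsweOCN;Ai9 libraries. The lowest control library was well above the highest TgAPPsweOCN;Ai9 library, and the log2 fold change was -1.53 (SE 0.0914, adjusted p = 2.16e-06). Tgfbr2, the type II receptor that binds TGF-beta, had an FPKM of 85.5, 84.8 and 86 in control and 51.2, 58.7 and 57 in TgAPPsweOCN;Ai9 libraries. Its genotypes did not overlap either, with a log2 fold change of -0.40 (SE 0.057, adjusted p = 0.000307). With scaling by library size only it was -0.62.

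Bmpr1a and Bmpr2 did not meet the adjusted p. Bmpr1a, a BMP type I receptor, had an FPKM of 1.64, 1.05 and 1.62 in control and 1.03, 1.13 and 1.28 in TgAPPsweOCN;Ai9 libraries. The second control library lay among the TgAPPsweOCN;Ai9 values, and the log2 fold change was -0.10 with a 95% interval from -0.52 to 0.33 (adjusted p = 0.677, and -0.31 under scaling by library totals). Bmpr2, the BMP type II receptor, had an FPKM of 7.91, 10 and 10.9 in control and 6.86, 8 and 8.24 in TgAPPsweOCN;Ai9 libraries. Its genotypes overlapped through the lowest control library. Its log2 fold change was -0.10 with a 95% interval from -0.36 to 0.16 (adjusted p = 0.474), but it was -0.23 without control replicate 1 (adjusted p = 0.0419). When libraries were scaled by their totals alone it was -0.31 (adjusted p = 0.0488). The interval of Bmpr1a holds the change of Tgfbr2, and neither interval reaches that of Tgfbr1. Acvr1, a further BMP type I receptor, was lower with no overlap (log2 fold change -0.38, adjusted p = 0.0128, and -0.60 under scaling by library totals).

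Among the other receptors, Acvrl1, a further type I receptor, rose from an FPKM of 11.5 ± 0.276 to 17.5 ± 1.24 (log2 fold change 0.83, adjusted p = 7.07e-06). Acvr2b, an activin type II receptor, fell from 2.04 ± 0.0702 to 0.477 ± 0.105 (log2 fold change -1.86, adjusted p = 5.23e-06). Of 5 tested type I receptors, 1 rose and 2 fell by the adjusted p, and of 4 tested type II receptors none rose and 3 fell. Of 5 tested co-receptors, 1 rose and 2 fell. These counts stand beside 32.5% and 31.5% of all tested genes that rose and fell, and are too small to set the receptors apart from them. Eng, the co-receptor endoglin, fell from 22.4 ± 0.785 to 13.1 ± 0.569 (log2 fold change -0.56, adjusted p = 5.25e-05). Bambi, a receptor that lacks a kinase and blocks signalling, rose from 1.1 ± 0.311 to 1.52 ± 0.312 with overlapping libraries (log2 fold change 0.68, adjusted p = 0.033), which did not hold with scaling by library size only (0.46, adjusted p = 0.113). Among the fits without 1 library, the adjusted p of Bambi met the threshold only without control replicate 2 (0.0182) and without TgAPPsweOCN replicate 2 (0.0194).

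**Figure D2:**
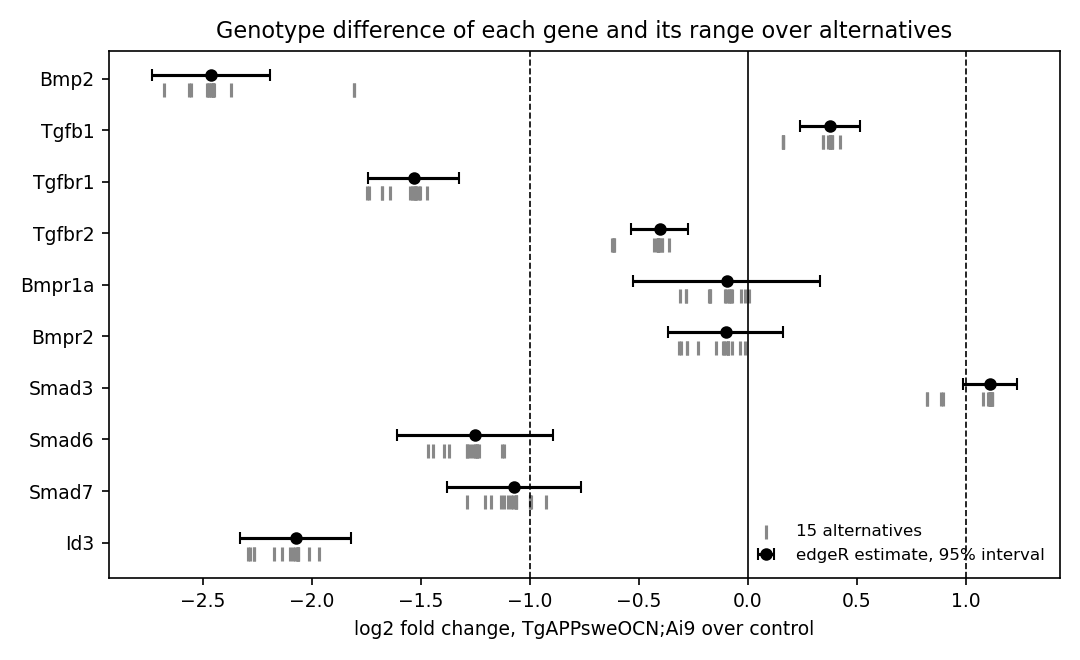
Log2 fold change of TgAPPsweOCN;Ai9 over control for each gene: black points are the edgeR estimates with 95% intervals, grey ticks the 15 alternatives in processing, and dashed lines the threshold of 1 in either direction. Bmp2, Tgfbr1, Smad6 and Id3 stay beyond the threshold under all 15 alternatives, and the ticks of Smad3 and Smad7 cross it.

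Smad3 and the inhibitory Smads changed in opposite directions. Smad3, the receptor Smad that binds DNA after a TGF-beta signal, had an FPKM of 8.12, 8.52 and 8.65 in control and 15.4, 15.9 and 15.7 in TgAPPsweOCN;Ai9 libraries. The libraries of each genotype were close together and the genotypes far apart. Its log2 fold change was 1.11 (SE 0.0535, adjusted p = 6.82e-07). With scaling by library size only it was 0.90 (adjusted p = 3.4e-06), below the threshold of the call, and under that scaling the called genes were 5, all lower.

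Smad6, which mainly inhibits BMP signals, had an FPKM of 10.7, 15.1 and 12.8 in control and 5.42, 3.92 and 4.62 in TgAPPsweOCN;Ai9 libraries. All TgAPPsweOCN;Ai9 libraries were below all control libraries, with a log2 fold change of -1.25 (SE 0.157, adjusted p = 0.000154). Smad7, which inhibits TGF-beta and BMP signals alike, had an FPKM of 5.87, 8.04 and 6.15 in control and 2.93, 2.59 and 2.95 in TgAPPsweOCN;Ai9 libraries. Its groups did not overlap, and its log2 fold change was -1.07 (SE 0.134, adjusted p = 0.000152). Without control replicate 2 it was -0.93 and without TgAPPsweOCN replicate 2 it was -0.99, which ended the call while the adjusted p stayed at or below 0.000453. Smad3 and Smad6 lie on the reverse strand of chromosome 9, at 63646766 to 63757994 and 63953076 to 64022085, with 195081 bases and no protein-coding RefSeq gene between them.

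Among the other Smads, Smad1, a receptor Smad of the BMP branch, rose from an FPKM of 12.1 ± 0.505 to 15 ± 0.736 (log2 fold change 0.52, adjusted p = 0.000115), or by 0.30 when libraries were scaled by their totals alone (adjusted p = 0.00281). Smad2, of the TGF-beta branch, had a log2 fold change of 0.19 (adjusted p = 0.0333) that turned to -0.028 with scaling by library size only, and its adjusted p was above 0.05 in each fit without 1 library except that without control replicate 3. Smad5 had a log2 fold change of -0.05 (95% interval -0.20 to 0.11), but -0.26 when scaled by library totals alone (adjusted p = 0.0107). The common Smad, Smad4, had the highest mean level of the receptor and common Smads in control, though not in TgAPPsweOCN;Ai9 libraries, at 15.9 ± 1.27 and 14.9 ± 1.42. It had a log2 fold change of 0.01 (95% interval -0.16 to 0.18) that turned to -0.20 with scaling by library size only. Its estimated counts were fractional in all 6 libraries. Smad9 was at 0.583 ± 0.133 and 0.22 ± 0.142 and was called down at -1.14 (adjusted p = 0.0381), but the adjusted p was 0.0654 without control replicate 2, 0.124 without control replicate 3, 0.0846 without TgAPPsweOCN replicate 2 and 0.127 without TgAPPsweOCN replicate 3, and the log2 fold change was -1.79 without TgAPPsweOCN replicate 1.

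Target genes were lower in TgAPPsweOCN;Ai9 libraries. Id3, an inhibitor of basic helix-loop-helix transcription factors, had an FPKM of 249, 331 and 284 in control and 62.6, 55.1 and 58.8 in TgAPPsweOCN;Ai9 libraries. Every TgAPPsweOCN;Ai9 library held less than any control library, and the control mean FPKM, without TMM scaling, was 4.9 times the other. Its log2 fold change was -2.07 (SE 0.11, adjusted p = 1.13e-06), as low or lower in 1.34% of all tested genes. Estimated counts of Id3 were fractional in 5 of the 6 libraries and those of Tgfbr1 in 1, which is how reads shared with other sequences are counted, so these values carry that uncertainty.

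Of 14 listed target genes 11 were tested, and none rose and 8 fell by the adjusted p, against 32.5% and 31.5% of all tested genes, and 5 were called down, against 9.2%. All 11 had lower FPKM values in every TgAPPsweOCN;Ai9 library than in any control library, against 48.3% of all tested genes, and their median log2 fold change was -0.85. FPKM lacks the TMM scaling, however, and 3 of the 11 did not meet the adjusted p. Id1 fell with Id3, from an FPKM of 104 ± 10.7 to 29.2 ± 6.73 (log2 fold change -1.61, adjusted p = 4.15e-05). Id2, the target gene with the highest mean over all 6 libraries but below Id3 in control, was at 238 ± 53.7 and 155 ± 15.5 (log2 fold change -0.40, adjusted p = 0.0522) and did not pass. Its value turned on the libraries and the scaling, at -0.23 without control replicate 2 (adjusted p = 0.165), -0.56 without control replicate 1 (adjusted p = 0.00369), -0.49 without TgAPPsweOCN replicate 1 (adjusted p = 0.0307) and -0.61 when libraries were scaled by their totals alone (adjusted p = 0.00782). DESeq2 gave an adjusted p of 0.0133. Klf11, a TGF-beta-inducible repressor, fell from 3.31 ± 0.321 to 1.09 ± 0.115 (log2 fold change -1.39, adjusted p = 3.22e-05). Hey1, a Notch and BMP target, fell from 0.693 ± 0.221 to 0.22 ± 0.0866 (log2 fold change -1.60, adjusted p = 0.00613) on 19 to 38 and 7 to 13 counts.

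**Figure D3:**
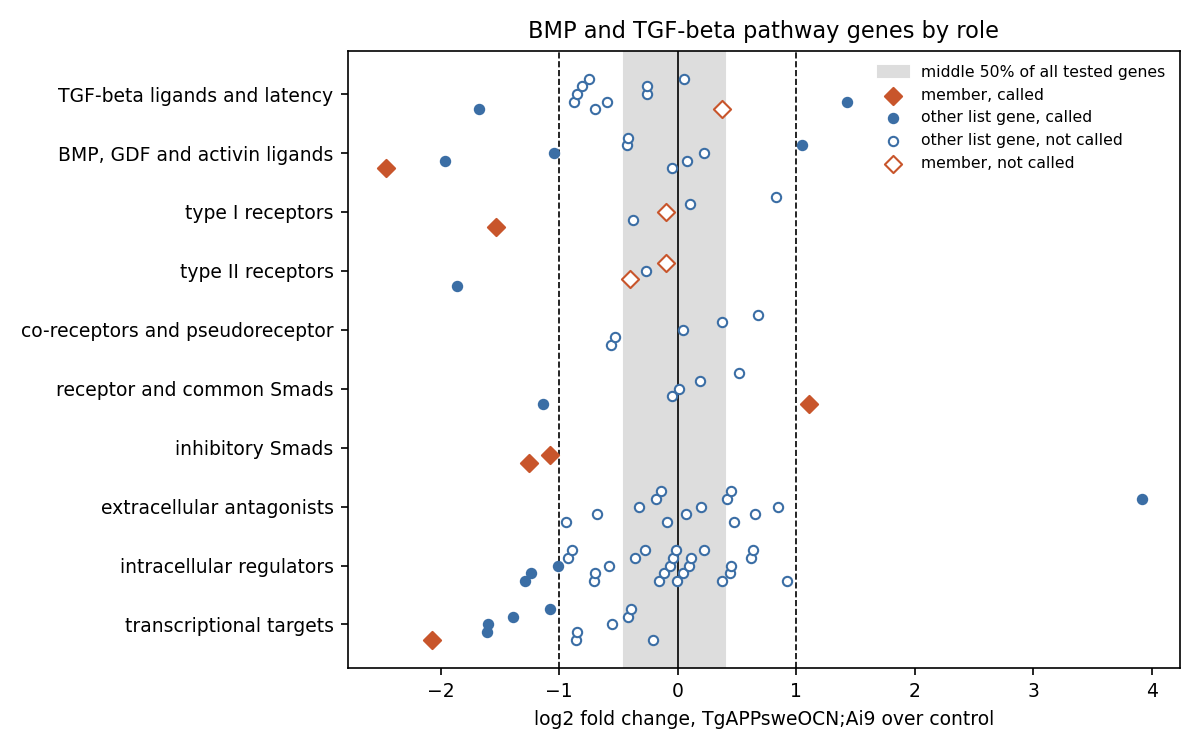
Log2 fold change of TgAPPsweOCN;Ai9 over control for the tested genes of the wider list, by role: diamonds are the 10 genes described here, circles the others, filled where called, and the grey band spans the middle 50% of all tested genes. The transcriptional targets and inhibitory Smads lie left of 0, and the extracellular antagonists and intracellular regulators lie on either side.

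The wider list held 127 genes, of which 119 had an entry and 94 were tested. Of these, 4 were called up and 17 down, which is 4.26% and 18.1%, against 8.9% and 9.2% of all tested genes. By the adjusted p, 18 rose and 38 fell, against 32.5% and 31.5% of all tested genes, 38 did not pass, and the median log2 fold change was -0.23. With scaling by library size only, 2 of these genes were called up and 25 down, beside 846 and 1732 of all 12701 tested genes, and the median of all tested genes moved from -0.019 to -0.23, so that values near 0 depend on the scaling. The list includes the 10 genes, which supply 5 of its 17 calls down. Like them, it was chosen with earlier results of these data known.

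Extracellular antagonists, which bind ligands outside the cell, were mostly without a difference past the test: of 14 tested, 3 rose and 1 fell by the adjusted p, against 32.5% and 31.5% of all tested genes, and 10 did not pass. Dcn, a matrix proteoglycan that binds TGF-beta and is also on the stromal marker list, had 13, 22 and 13 counts in control and 51, 406 and 250 in TgAPPsweOCN;Ai9 libraries. It was called up (log2 fold change 3.92, standard error 0.715, adjusted p = 0.00137), with a wide spread between the TgAPPsweOCN;Ai9 libraries. Bgn, a related proteoglycan with the highest level of this group, was at an FPKM of 131 ± 23.6 and 99.7 ± 21.2 (adjusted p = 0.351). Dand5, an antagonist of Nodal and BMP, fell from 3.31 ± 0.409 to 1.48 ± 0.26 (log2 fold change -0.95, adjusted p = 0.00264).

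Intracellular regulators changed in either direction: of 26 tested, 7 rose and 9 fell by the adjusted p, against 32.5% and 31.5% of all tested genes. Of the 26, 3 were called down, or 11.5%, near the 9.2% of all tested genes. Nedd4l, a ubiquitin ligase for activated Smad2 and Smad3, fell from an FPKM of 5.6 ± 0.393 to 1.99 ± 0.285 (log2 fold change -1.29, adjusted p = 9.13e-06). Pmepa1, a TGF-beta-induced protein that holds back receptor Smads, fell from 10.5 ± 0.565 to 3.84 ± 0.225 (log2 fold change -1.24, adjusted p = 1.68e-06). Tgif1, a Smad co-repressor, fell from 95.2 ± 8.3 to 41.2 ± 0.469 (log2 fold change -1.01, adjusted p = 4.65e-06), and was at -0.96 without control replicate 2 and just short of -1 without TgAPPsweOCN replicate 2 or 3. Trim33, a ubiquitin ligase that binds Smads, rose from 6.11 ± 0.408 to 10.7 ± 0.814 (log2 fold change 0.92, adjusted p = 5.15e-06). Fkbp1a, which binds type I receptors and had the highest mean level of this group over all 6 libraries but lay below Tgif1 in control, rose from 91.8 ± 2.15 to 108 ± 4.34 (log2 fold change 0.44, adjusted p = 0.000234, and 0.23 under scaling by library totals).

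**Figure D4:**
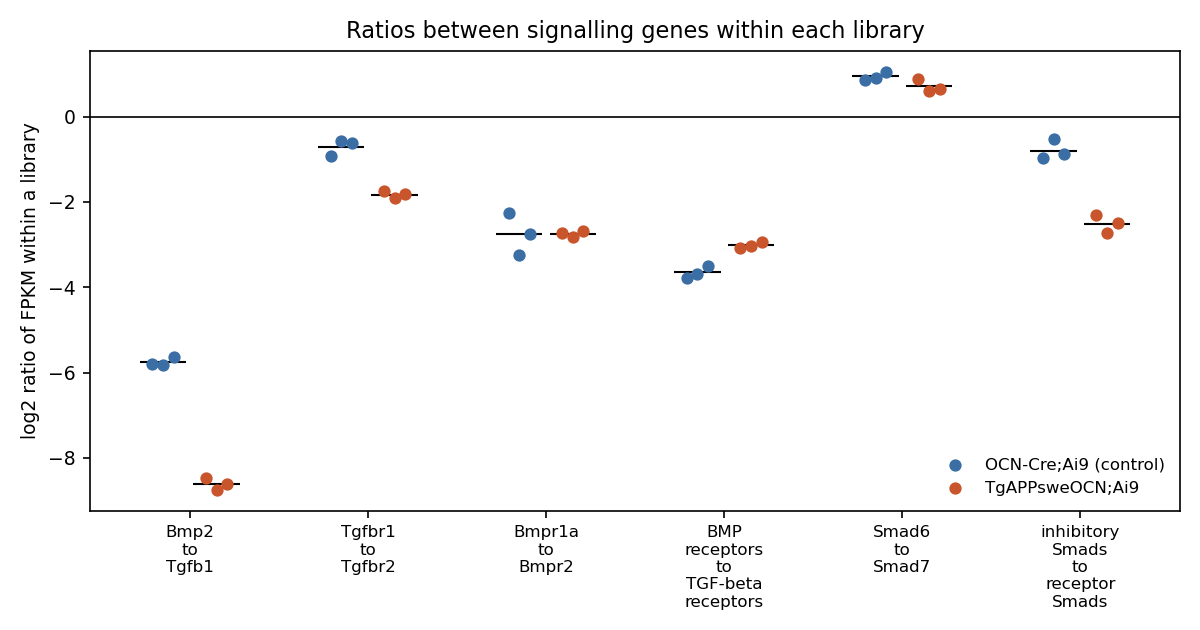
Log2 ratio of FPKM between genes or sums of genes within each library, for control (blue) and TgAPPsweOCN;Ai9 (orange), with black lines at the means. The genotypes lie apart for 4 of the 6 ratios and overlap for Bmpr1a to Bmpr2 and Smad6 to Smad7.

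Ratios between genes of the same library do not depend on the scaling between libraries, and 6 were compared by an exact two-sided permutation test, for which p = 0.1 is the smallest value that 3 libraries against 3 allow. No ratio could therefore pass 0.05, and p adjusted over the 6 ratios was at least 0.15. The log2 ratio of Bmp2 to Tgfb1 was -5.81, -5.81 and -5.64 in control and -8.48, -8.75 and -8.62 in TgAPPsweOCN;Ai9 libraries, a difference of -2.86 (exact p = 0.1). That of Tgfbr1 to Tgfbr2 was -0.93, -0.57 and -0.63 in control and -1.75, -1.92 and -1.82 in TgAPPsweOCN;Ai9 libraries, a difference of -1.12 (exact p = 0.1). In each of these ratios every TgAPPsweOCN;Ai9 library was below every control library.

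BMP receptors (Bmpr1a and Bmpr2 summed) over TGF-beta receptors (Tgfbr1 and Tgfbr2 summed) had a mean log2 ratio of -3.65 ± 0.139 (SD, n = 3) in control and -3.01 ± 0.0676 in TgAPPsweOCN;Ai9 libraries. The difference of 0.64 had no overlap between the genotypes (exact p = 0.1). This ratio covers only part of the BMP receptors, since it leaves out Acvr1, the further BMP type I receptor. Acvr1 was above Bmpr1a in both genotypes, at an FPKM of 11.1 ± 1.07 in control and 7.31 ± 0.725 in TgAPPsweOCN;Ai9 libraries. A ratio that includes Acvr1 was not computed. Inhibitory Smads (Smad6 and Smad7 summed) over receptor Smads (Smad1, Smad2, Smad3, Smad5 and Smad9 summed) had a log2 ratio of -0.98, -0.53 and -0.88 in control and -2.30, -2.72 and -2.51 in TgAPPsweOCN;Ai9 libraries. This difference of -1.71 was far larger than the spread between libraries, with no overlap (exact p = 0.1). Bmpr1a to Bmpr2 differed by 0.0096 (exact p = 0.9) with control values from -3.25 to -2.27, and Smad6 to Smad7 by -0.23 (exact p = 0.2), both with overlap.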

How the data were processed

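RNA-seq was measured in 6 libraries of sorted tdTomato+ cells, 3 of each genotype. Reads from rRNA, with adaptors or of low quality were discarded by the authors. The submitters' processing notes list HISAT2 2.0.4, Bowtie2 2.2.5, RSEM 1.2.12, DESeq2 1.4.5 and the build mm10. Per gene and library, the authors deposited an estimated count (13.3% to 14.4% were not whole) and an FPKM value with 2 decimals. A further table holds the authors' log2 ratios and p-values, which were not used.

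Estimated counts were rounded and tested by edgeR 4.0.16 under R 4.3.3 (quasi-likelihood test after filterByExpr and TMM scaling, Benjamini-Hochberg adjustment over all tested genes) in a design of genotype alone. Ratios of FPKM were tested by exact permutation in scipy 1.17.1. Alternatives were DESeq2 1.42.0, RLE factors, library size only, no filter beyond 1 count, at least 10 counts in every library, a replicate block, limma 3.58.1 on log2(FPKM + 1) or log2(FPKM + 0.1) with a filter at an FPKM of 1 or, for the pseudocount of 1, no filter, and leaving out each library. For the ratios they were CPM, FPKM + 0.1, the block and each library left out. Libraries of the same genotype differed by 2.56 times sampling noise or more, so none was taken as a library deposited again. This does not show that they came from separate mice. The procedure was tested on simulated data. Log2 fold changes near 0 depend on the scaling.

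The genes and lists were chosen with earlier results of these data known. Named genes are the 10 members, the called genes of the wider list and, for each role, the gene with the highest FPKM and the largest rise and fall past the adjusted p, apart from a gene that is not reported here. Nrros, Tgfb2, Acvr1, Smad1, Smad2 and Smad5 were named after their values were seen. Ccn2 was read under its older symbol, Ctgf. Loci and promoters are those of RefSeq on GRCm38.p6.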

Additional observations from a re-analysis of the deposited data

How the results depend on the processing

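Over the 15 alternatives, Bmp2, Tgfbr1, Smad6 and Id3 were called every time, and Smad3 and Smad7 in 11 of 15 each. The number of the 10 genes called was 4 to 6, and the number past the adjusted p 8 or 9. Genes of the wider list called up numbered 4, and 2 with library size only, in limma on log2(FPKM + 1) with and without a filter, and in limma on log2(FPKM + 0.1), but 6 with no filter beyond 1 count. Leaving out each library gave 3 to 4 called up and 14 to 16 called down. Over all genes, 1130 were called up, but 586 in limma on log2(FPKM + 1), 589 without its filter and 667 on log2(FPKM + 0.1). Smad2 turned to -0.028 with library size only, -0.026 in limma on log2(FPKM + 1) with and without a filter and -0.029 on log2(FPKM + 0.1). Smad4 turned to -0.20, -0.0897 (with and without a filter) and -0.095, and ran from -0.055 to 0.056 without each library. Bmpr1a ran from -0.28 to 0.0056 without each library, and the Bmpr1a to Bmpr2 ratio from -0.24 to 0.25. Smad3 fell below the threshold, to 0.82, in limma on log2(FPKM + 1) and to 0.89 on log2(FPKM + 0.1), and Smad7 to -0.998 on log2(FPKM + 1). The pseudocount of 1 also shrank low genes, with Acvr2b at -1.04, Dcn at 1.99 and, without a filter, Hey1 at -0.47, Smad9 at -0.38 and Gdf9 at -0.34. The causes of the other changes were not tested.

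The replicate numbers share no stated origin, and deviations of same-numbered libraries correlated at 0.022, 0.018 and 0.168 over 12632 genes, so the numbers were not taken as pairs. Of the control libraries, 1 and 3 correlated best with their own number and 2 did not. With the replicate block 1115 of all genes were called up and 1147 down, against 1130 and 1169 without it. Bambi (adjusted p = 0.0768), Tgfb2 (0.0601), Smad9 (0.0524) and Gdf9 (0.0559) then missed the adjusted p, and 6 of the 10 genes were called, Bmp2 at -2.46 and Smad7 at -1.06, and the ratio differences kept their values with p of at least 0.25, the smallest that 3 pairs allow. Among the 10 genes, counts were lowest for Bmp2 in TgAPPsweOCN;Ai9 libraries (56 to 70) and for Bmpr1a (112 to 173).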
